A study of Bos taurus with 48 samples.

Results

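The genes described here encode the enzymes that cut extracellular matrix and lysosomal proteins, together with their inhibitors, as measured in bovine endometrium on day 17. They were taken by symbol: the matrix metalloproteinases (MMP), their tissue inhibitors (TIMP), the ADAM, ADAMTS and ADAMTSL families, the cathepsins (CTS), the cystatins (CST), and the plasminogen activators PLAU and PLAT with the receptor PLAUR. The pattern matched 86 of the 21475 probes on the array, which stood for 83 genes. Of these, 4 probes (CSTF1, CSTF2, CSTF2T and CSTF3) matched by letters alone, since they encode subunits of the cleavage stimulation factor, an RNA-processing complex, and they were counted apart. The other 82 probes stood for 79 protease and inhibitor genes, of which 59 probes for 56 genes were bright enough to be tested.

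Endometrium was taken from lactating dairy cows of mixed New Zealand and North American Holstein Friesian ancestry. There were 12 pregnant cows, which had received an embryo on day 7, and 10 cyclic cows without one. Each cow gave a sample of caruncular endometrium, the gland-free areas where the placenta attaches, and a sample of the gland-rich intercaruncular endometrium between them, giving 44 samples. In the pregnant cows the recovered embryo was classed as large in 7 (over 20 cm and over 75 mg) and small in 5 (under 20 cm and under 40 mg), and the cow as fertile in 6 and sub-fertile in 6. The classes were crossed unevenly, with 3 small and 3 large embryos in fertile cows and 2 small and 4 large in sub-fertile cows, and cyclic cows had no fertility class in the labels. Every sample was hybridised in Cy5 against the same Cy3-labelled pool of endometrial RNA, so each value is the log2 ratio of a cow to that pool, with no dye swap. A difference between groups of these ratios is called a change below.

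The matrix of the endometrium is turned over by families of enzymes that act in different places. MMPs are zinc enzymes, secreted or held in the membrane, that degrade collagens, gelatin and other matrix proteins and are blocked by TIMPs. ADAMs are membrane proteins, many of which shed growth factors and receptors from the cell surface, while ADAMTS enzymes are secreted and several cut proteoglycans or trim procollagen. Cathepsins work chiefly in lysosomes, and the cysteine cathepsins among them are blocked by cystatins. Urokinase (PLAU) and tissue plasminogen activator (PLAT) turn plasminogen into plasmin, which can activate MMPs. In the uterus these systems are known for remodelling tissue and for processing the secretions that feed the conceptus before it attaches.

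Probe sequence was taken from the study's list of transcripts that differed between pregnant and cyclic animals in these same data. That list was held here only in part, and a sequence was found for 13 of the members. The polyadenylation signal AATAAA, searched on the printed strand, was in 3 of these 13 probes and in 230 (13.6%) of the 1689 probe sequences read. That share is over listed probes, not over the array. The 3 probes, each 60 bases long, belonged to members called in the pregnancy comparison below. Because the list was made from that comparison, this says nothing about the signal. A stretch of 30 bases around the signal is shown, 5′ to 3′, with the signal in capitals. Where these probes lie in the transcript was not tested.
ADAMTS4: ttaaatactgtaAATAAAgaactagcataa
CTSB: aggaatggctgccAATAAAaagcctctcct
CTSZ: gcccaagtgatgAATAAAatgcacacttca
These are the only sequences shown, and the match is a description of the probe, not of how the transcript ends in these cows.

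Some array names did not settle the gene. The probe used here as TIMP3 carried that name in its description, while its array name and accession were those of CHRNA3, a nicotinic receptor subunit. The MMP16 probe had a description naming RBPSUH. Of the pair of probes that the array annotated as CTSL, the brighter one had an accession that RefSeq lists as CTSV, and it is called CTSV here. The CSTB accession was listed as LOC512805. Results on TIMP3, MMP16 and CTSV are open to these doubts.

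Across the 48 arrays, which included 4 repeats of caruncular samples, 68.8% to 84% of spots were well above background and the signal stood 8.08 to 29.7 times above it. The interferon response genes, which the conceptus of ruminants induces, marked the pregnant cows: all 4 tested genes of that list were higher in both tissues, by a median of 4.11 in the caruncular and 2.72 in the intercaruncular samples. Of 8 trophoblast genes on the array PAG1 alone passed the filter, without a called change in pregnancy, and IFNT2 and PAG11 were above background in no sample. A pregnancy or tissue change is said to be called, or to have risen or fallen, where it was at least 1.5-fold with a Benjamini-Hochberg adjusted p under 0.05 from limma over all 14664 tested probes. In whole tissue, fewer cells of a type and less RNA per cell cannot be told apart.

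In pregnant cows 4 of 11 lysosomal cysteine cathepsins rose in each tissue, with CTSC counted by its brighter probe. A TIMP3-named probe and ADAMTS4 fell in both tissues, and MMP11 fell in caruncular tissue. In caruncular tissue CTSS, CTSC, CTSZ, CTSB and ADAMTSL3 rose and TIMP3, ADAMTS4 and MMP11 fell. In intercaruncular tissue CTSS, CTSC, CTSZ and CTSO rose and TIMP3, ADAMTS4 and ADAM23 fell. Called changes ran from 1.52-fold to 2.32-fold. They numbered 8 of 56 members in caruncular tissue (14.3%, against 9.95% of all tested probes) and 7 in intercaruncular tissue (12.5%, against 7.17%). By direction, 5 members rose in caruncular tissue, where 6.08% of all probes did, and 3 fell, where 3.87% did. In intercaruncular tissue 4 rose, against 4.26% of all probes, and 3 fell, against 2.91%. The median size of change over the members was 0.30 in caruncular tissue, where it was 0.18 over all probes, and 0.26 in intercaruncular tissue, again with 0.18 over all probes. Of the 10 members called in either tissue, 5 were called in both, which was 5 of the 8 and 5 of the 7.

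**Figure D1:**
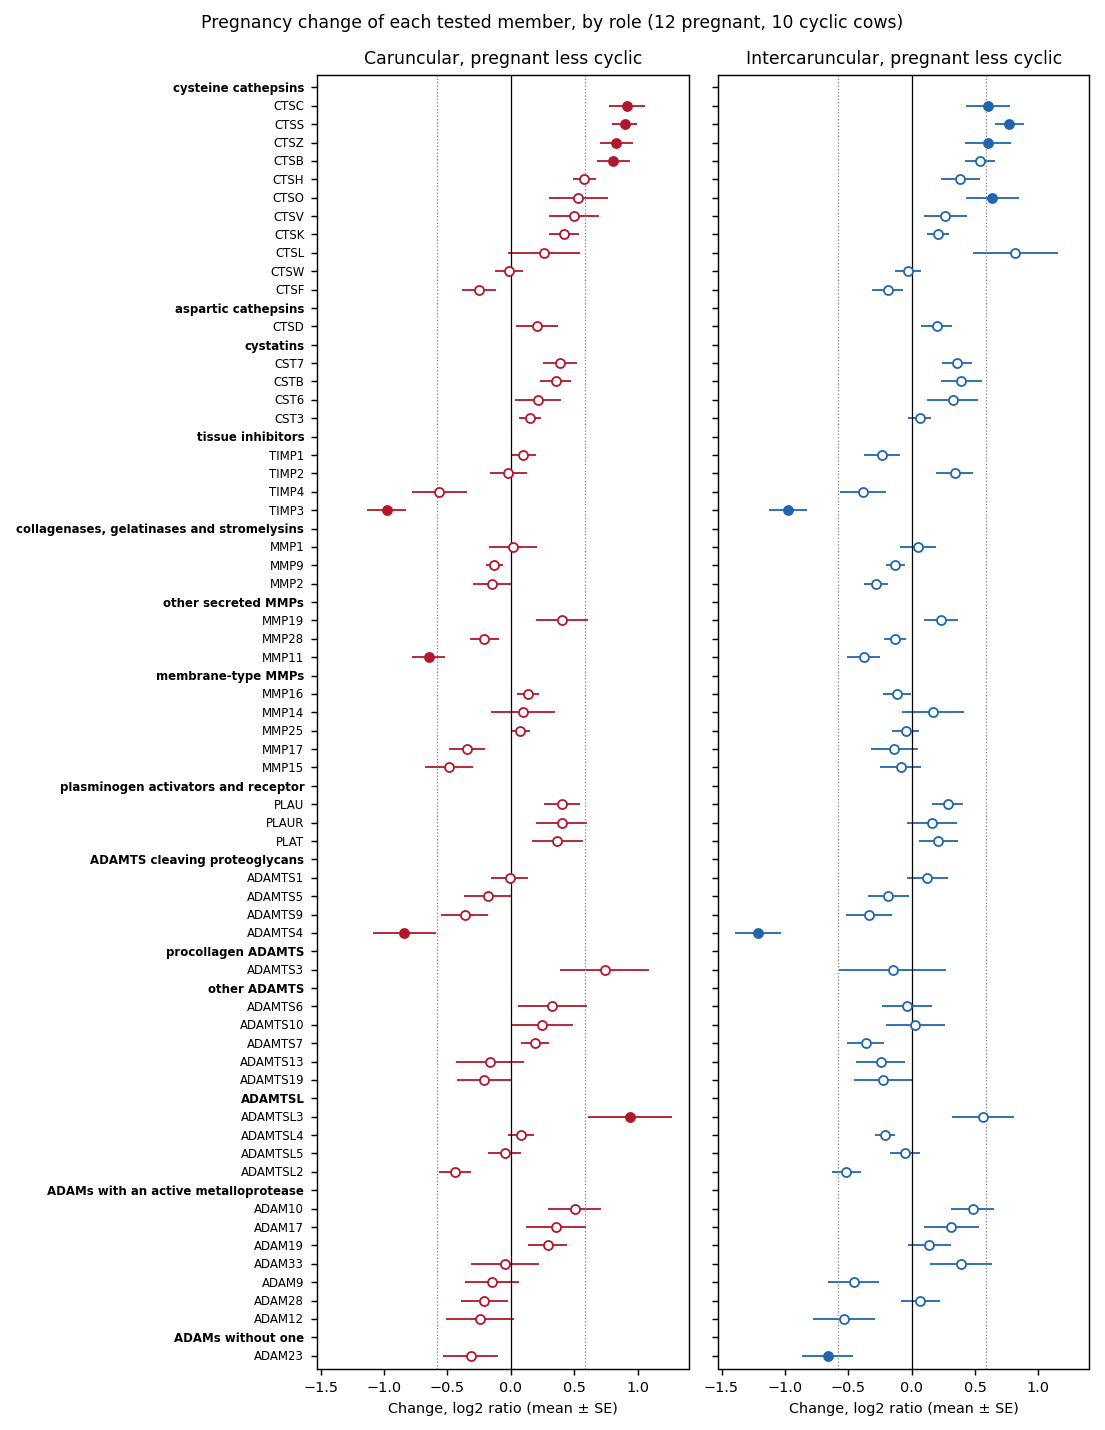
Change between 12 pregnant and 10 cyclic cows for each tested member, in rows grouped by role, with caruncular tissue on the left and intercaruncular on the right. The horizontal axis is the difference in mean log2 ratio, points are the fitted change and bars its standard error. The cysteine cathepsins lie mostly to the right of 0, with 9 of 11 above it in each tissue, and TIMP3 and ADAMTS4 lie far to the left in both.

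Cysteine cathepsins were the group with the most called members. Of 11 tested, 4 rose in each tissue and none fell, and 9 had a change above 0 in each, as did 46.1% of all probes in caruncular and 50.1% in intercaruncular tissue. Their median change was 0.53 in the caruncular and 0.54 in the intercaruncular samples, against −0.02 and 0.00 over all probes. CTSC is counted here by its brighter probe, and its dimmer probe went the other way. With the slide as a random block, CTSS alone of the 4 intercaruncular calls was kept. CTSS, a cathepsin that antigen-presenting cells use to process the MHC class II invariant chain, had caruncular log2 ratios from −0.27 through a median of 0.24 to 0.57 in pregnant cows and from −0.91 through −0.66 to −0.38 in cyclic cows. Its caruncular groups did not overlap, as for 1.91% of all probes. The change was 0.90 ± 0.10 (SE; 1.86-fold, adjusted p = 4.28e-07). In intercaruncular tissue CTSS ran from −0.38 through 0.10 to 0.50 in pregnant cows and from −0.89 through −0.73 to −0.27 in cyclic cows. There 2 pregnant cows reached into the cyclic range. In that tissue 0 members had groups that did not overlap, against 1.17% of all probes. The CTSS groups overlapped little, and the change was 0.77 ± 0.11 (1.71-fold, adjusted p = 4.89e-05).

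CTSC, also called dipeptidyl peptidase I, activates the serine proteases of leukocyte granules. In caruncular tissue it ran from 0.05 through 0.39 to 1.20 in pregnant cows and from −0.91 through −0.46 to 0.09 in cyclic cows. The ranges met only at their ends, and the change was 0.91 ± 0.14 (1.89-fold, adjusted p = 6.92e-05). In intercaruncular tissue it ran from −0.71 through −0.27 to 0.68 in pregnant cows and from −1.31 through −0.78 to 0.16 in cyclic cows, with wide overlap and a change of 0.60 ± 0.17 (1.52-fold, adjusted p = 0.0167). That call was lost with the slide as a random block (0.52, adjusted p = 0.141). The array held a second, dimmer CTSC probe with a mean signal of 742 against 8528. It went the other way, with a caruncular change of −0.24 ± 0.14 (adjusted p = 0.196) and an intercaruncular change of −0.44 ± 0.09 (adjusted p = 0.00209), so the rise of CTSC holds for the brighter probe. The mean of both probes changed by 0.34 in caruncular and 0.08 in intercaruncular tissue, under the fold threshold.

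CTSZ, a cathepsin that trims single residues from the carboxyl end of proteins, ran in caruncular tissue from −0.31 through 0.19 to 0.72 in pregnant cows and from −0.97 through −0.58 to −0.30 in cyclic cows. One range began where the other ended, and the change was 0.83 ± 0.13 (1.78-fold, adjusted p = 6.43e-05). In intercaruncular tissue it ran from −0.66 through 0.32 to 1.01 against −1.30 through −0.29 to −0.00, with a change of 0.60 ± 0.18 (1.52-fold, adjusted p = 0.0242). Without the cyclic cow of the third scan, whose −1.30 was the lowest of its group, the intercaruncular change was 0.50, and without both cows of that scan it was 0.58, each just under 1.5-fold. With the slide as a random block it was 0.66 (adjusted p = 0.0814) and was not called.

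CTSB, an abundant lysosomal endo- and exopeptidase, ran in caruncular tissue from 0.10 through 0.43 to 1.11 in pregnant cows and from −0.75 through −0.32 to 0.10 in cyclic cows. The groups shared little of their range, and the change was 0.81 ± 0.13 (1.75-fold, adjusted p = 8.67e-05). In intercaruncular tissue it ran from −0.18 through 0.25 to 0.94 against −0.44 through −0.23 to −0.08, and the change of 0.54 ± 0.12 (adjusted p = 0.00359) was 1.45-fold and so not called. Saturated spots were found on 4 of the 48 arrays for CTSB, on 3 each for the TIMP3 and CSTB probes and on 2 for CTSF.

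CTSO, a widely expressed cysteine cathepsin of little-known function, was called in intercaruncular tissue. There it ran from −1.02 through −0.38 to 1.55 in pregnant cows and from −1.50 through −0.84 to −0.59 in cyclic cows. The change was 0.64 ± 0.21 (1.56-fold, adjusted p = 0.0361), with overlap and with a probe above background in 12 of 12 pregnant but 4 of 10 cyclic cows. Without both cows of the third scan the change was 0.45, and under another background correction it was 0.31, neither of them called. With the slide as a random block it was 0.72 (adjusted p = 0.0989), again not called. In caruncular tissue the change was 0.53 ± 0.23 (adjusted p = 0.0910).

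The remaining cathepsins did not meet both criteria. CTSH, an aminopeptidase, changed by 0.58 ± 0.09 in caruncular tissue (adjusted p = 8.17e-05), which at 1.496-fold was just short of the threshold. CTSK, a collagen-degrading cathepsin known from bone, changed by 0.42 ± 0.12 there (adjusted p = 0.0107). CTSV changed by 0.50 ± 0.20 (adjusted p = 0.0634). CTSL, a lysosomal endopeptidase, changed by 0.82 ± 0.34 in intercaruncular tissue (adjusted p = 0.0877), a larger fold than some called members but with a spread of 0.99 (SD) among the 12 pregnant cows. CTSF and CTSW had changes below 0 in both tissues, of −0.25 and −0.01 in caruncular and −0.19 and −0.03 in intercaruncular tissue, with adjusted p from 0.184 to 0.950. CTSD, the aspartic cathepsin, changed by 0.21 and 0.20, neither called.

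The cystatins, which block cysteine cathepsins, were all above 0 in both tissues without a called change, and the median of the 4 was 0.29 in caruncular and 0.34 in intercaruncular tissue. In caruncular tissue CSTB, the cystatin that works inside the cell, changed by 0.35 ± 0.12 (adjusted p = 0.0376), and its intercaruncular change was 0.39 ± 0.16 (adjusted p = 0.0865). For CST7, a cystatin known from leukocytes, the changes were 0.38 ± 0.13 (adjusted p = 0.0377) and 0.36 ± 0.12 (adjusted p = 0.0414). Both stayed under 1.5-fold. The secreted CST3 changed by 0.15 and 0.06 and CST6 by 0.22 and 0.32, with adjusted p of 0.221 or more.

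**Figure D2:**
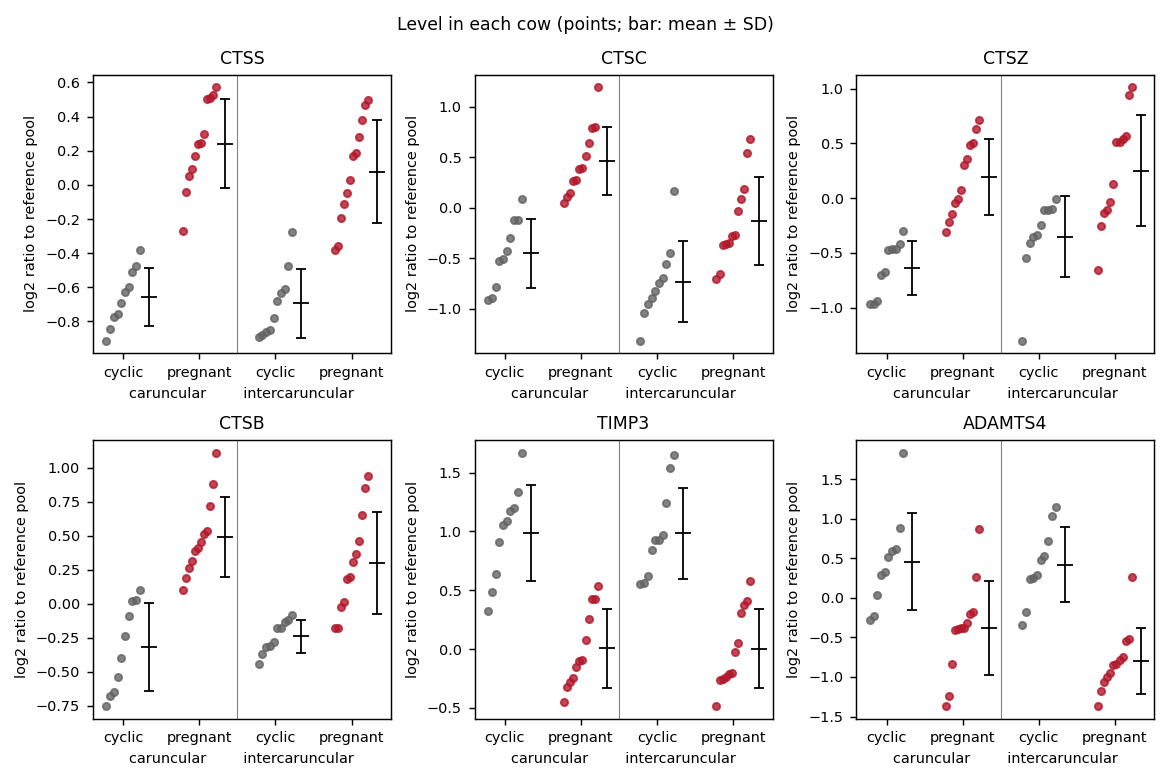
Log2 ratio to the reference pool in each cow for CTSS, CTSC, CTSZ, CTSB, TIMP3 and ADAMTS4, with caruncular tissue left of the line and intercaruncular right of it. Points are cows (10 cyclic in grey, 12 pregnant in red) and bars the mean with its SD. The caruncular CTSS groups do not overlap, and TIMP3 and ADAMTS4 are lower in pregnant cows.

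Among the tissue inhibitors, 1 of 4 fell in each tissue. The probe named TIMP3, after an inhibitor that binds to the matrix and blocks ADAMs as well as MMPs, ran in caruncular tissue from −0.45 through −0.10 to 0.54 in pregnant cows and from 0.32 through 1.07 to 1.67 in cyclic cows. It fell by 0.98 ± 0.15 (1.97-fold, adjusted p = 7.06e-05), with a small overlap. In intercaruncular tissue it ran from −0.48 through −0.11 to 0.58 against 0.55 through 0.93 to 1.65, and fell by 0.98 ± 0.15 (1.97-fold, adjusted p = 9.00e-05). The groups met only at their ends there too. TIMP4 changed by −0.56 ± 0.22 (adjusted p = 0.0581) and −0.38 ± 0.18 (adjusted p = 0.140), and TIMP1 by 0.10 and −0.24. TIMP2, the inhibitor that also takes part in activating MMP2, changed by −0.02 and 0.34. The TIMP1 and TIMP2 changes had adjusted p of 0.105 or more.

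The plasminogen activators and their receptor all had changes above 0 and none was called. PLAU had a caruncular change of 0.40 ± 0.14 (adjusted p = 0.0438) and an intercaruncular change of 0.28 ± 0.12 (adjusted p = 0.0989). PLAT changed by 0.37 ± 0.20 (adjusted p = 0.177) and 0.21 ± 0.16 (adjusted p = 0.363). PLAUR changed by 0.40 ± 0.20 (adjusted p = 0.147) and 0.16 ± 0.20 (adjusted p = 0.610). Their groups overlapped widely, PLAU for instance running from −0.44 to 0.76 in pregnant and from −0.62 to 0.54 in cyclic caruncular tissue.

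Of the 11 MMPs tested, MMP11 was called, in caruncular tissue. MMP11, or stromelysin 3, is a stromal enzyme that is secreted in active form. It ran from −0.67 through −0.33 to 0.38 in pregnant and from −0.14 through 0.38 to 0.97 in cyclic caruncular tissue, and fell by 0.65 ± 0.13 (1.57-fold, adjusted p = 0.00107). The ranges overlapped, though all 12 pregnant cows were below the cyclic mean. In intercaruncular tissue the change was −0.38 ± 0.13 (adjusted p = 0.0436), or 1.30-fold. The gelatinases MMP2 and MMP9 degrade denatured collagen and basement membrane. They changed by −0.15 and −0.13 in caruncular and −0.28 and −0.13 in intercaruncular tissue. The intercaruncular MMP2 change had an adjusted p of 0.0383 in limma but stayed under 1.5-fold. A dimmer MMP2 probe was at 0.28 (adjusted p = 0.276 in limma) in caruncular and −0.01 in intercaruncular tissue. No membrane-type MMP was called.

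ADAMTS4, which cuts the proteoglycans aggrecan and versican, ran in intercaruncular tissue from −1.37 through −0.84 to 0.27 in pregnant cows and from −0.34 through 0.38 to 1.15 in cyclic cows. It fell by 1.22 ± 0.18 (2.32-fold, adjusted p = 6.74e-05), the largest called pregnancy change among the members. In caruncular tissue it ran from −1.37 through −0.38 to 0.87 against −0.29 through 0.42 to 1.84, and fell by 0.84 ± 0.25 (1.79-fold, adjusted p = 0.0155). The groups overlapped in both tissues. ADAMTS1, ADAMTS5 and ADAMTS9, its relatives that cut proteoglycans, were not called. ADAM23, an ADAM without protease activity that is known from neural adhesion, ran in intercaruncular tissue from −1.21 through −0.43 to 0.52 against −0.50 through 0.29 to 0.95. It fell by 0.66 ± 0.20 (1.58-fold, adjusted p = 0.0232) there, a call lost with the slide as a random block (−0.72, adjusted p = 0.102), and its change in caruncular tissue was −0.32 ± 0.21 (adjusted p = 0.284). None of the 7 ADAMs with an active protease was called.

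ADAMTSL3, a matrix protein that resembles ADAMTS enzymes but lacks the protease domain, ran in caruncular tissue from 0.14 through 1.14 to 1.88 in pregnant cows and from −1.63 through 0.16 to 1.45 in cyclic cows. The cyclic cows spread widely, and the change was 0.94 ± 0.33 (1.92-fold, adjusted p = 0.0405). The call was the weakest of the caruncular set: it was lost with the slide as a random block (0.75, adjusted p = 0.216), without the cyclic cow with the most flagged spots (adjusted p = 0.0517), and the change was −0.11 with slide fitted as a fixed block on the averaged samples. In intercaruncular tissue it was 0.56 ± 0.24 (adjusted p = 0.106).

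The pregnancy calls depended on how the slide was treated. With slide fitted as a fixed block, 0 members were called in caruncular tissue, where 57 of all probes were, against 1459 without the block. In intercaruncular tissue ADAMTS4 and TIMP3 were then called, with 131 of all probes against 1052 without it. Of the first arrays, 1 slide per tissue carried both states, with 3 pregnant cows and 1 cyclic cow, and that fit rested on it. On it the caruncular changes of CTSS, TIMP3 and CTSB were 1.05, −1.73 and 0.86, and 7 of the 8 called members went the same way as over all cows, ADAMTSL3 being the exception. In intercaruncular tissue all 7 did, though CTSC was at 0.11 and CTSO at 0.43. The repeat arrays made a second caruncular slide with both states, holding 2 pregnant cows and 1 cyclic cow. On it all 8 called members went the same way, among them CTSS (0.91), TIMP3 (−1.07), CTSC (0.72) and ADAMTSL3 (0.92), but CTSB (0.32), CTSZ (0.44) and MMP11 (−0.33) by less than 1.5-fold. The cows of these slides also entered the fit that called the members, so such counts are no independent support. The share over all called probes was not computed for them. With the repeat arrays kept apart, the cow as a random block and slide as a fixed block, a fit added after seeing the data, 9 members were called in caruncular tissue, with 884 of all probes. MMP11 (−0.41, adjusted p = 0.149) and ADAMTSL3 (0.93, adjusted p = 0.258) were then not called, and CTSH, CTSK and ADAMTSL2 were. On slides with 1 state, slide and pregnancy cannot be told apart.

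Markers of other cells moved in the same comparison, in which 6.08% of all probes rose and 3.87% fell in caruncular tissue. The shares were 4.26% and 2.91% in intercaruncular tissue. Of 8 tested macrophage and monocyte genes, 5 rose in caruncular tissue and 3 in intercaruncular tissue. Their summed signal was 17010 to 40330 (median 28850) in pregnant and 10770 to 27680 (median 17740) in cyclic caruncular tissue. In intercaruncular tissue it was 14470 to 36770 (median 24320) against 10120 to 19190 (median 15150). The 4 pan-leukocyte genes had 1 that rose in each tissue, and their sum was 17940 to 34730 against 11110 to 23270 in caruncular and 10710 to 26600 against 10640 to 21600 in intercaruncular tissue. No T lymphocyte gene of 5 tested was called in either tissue. In caruncular tissue NKG7 rose (0.77), 1 of 2 tested NK cell genes. MZB1 rose there too (0.72), 1 of 4 tested B lymphocyte and plasma cell genes. In intercaruncular tissue no NK cell, B lymphocyte or plasma cell gene was called. Of 5 smooth muscle genes 3 fell in each tissue. Of 7 stromal genes 1 fell in the caruncular and 3 in the intercaruncular samples. Of 5 endothelial genes 2 fell in each tissue, PECAM1 (−1.27 and −1.50) and TEK (−0.59 and −0.73). In caruncular tissue 2 of 6 epithelial genes fell and 1 rose, and 1 of 3 ciliated epithelial genes fell. In intercaruncular tissue 1 epithelial gene rose. The part of these shifts in the rise of the cathepsins and the fall of TIMP3, ADAMTS4 and MMP11 was not tested.

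Genes of the same pathways outside the symbol pattern were taken from a list of 42, of which 38 were on the array and 30 were tested. In caruncular tissue none rose, where 6.08% of all probes did, and 4 fell, where 3.87% did, with a median change of −0.16. They were ANXA2, a cell-surface binding protein for plasminogen and PLAT (−0.93, adjusted p = 7.42e-05), MME, a membrane peptidase known as neprilysin or CD10 (−1.16, adjusted p = 0.00214), and the serine peptidases FAP (−0.63) and DPP4 (−0.69). In intercaruncular tissue FAP (−0.68) and MME (−0.63) fell and none rose, with a median of −0.26. Of all probes 2.91% fell and 4.26% rose there.

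No tested member had a called difference in pregnancy change between the tissues. The interaction term was called for 0 members, and for 3 of all tested probes (0.0205%), in limma on all 44 samples. At an unadjusted p under 0.05 there were 2 members, against 7.21% of all probes. The smallest p belonged to ADAMTS7, an enzyme that cuts cartilage oligomeric matrix protein (0.55 ± 0.18, adjusted p = 0.424). For CTSB, called in caruncular tissue but not in intercaruncular tissue, the difference of the changes was 0.27 with a 95% interval from −0.09 to 0.63. For ADAM23 it was 0.34 from −0.26 to 0.95, and for MMP11 −0.27 from −0.65 to 0.11. That fit leaves out the pairing of the tissues within a cow. With the cow as a replicate block there were again 0 called members, but 8 at an unadjusted p under 0.05 (14.3%, against 17.1% of all probes), with ADAMTS7 again the smallest (adjusted p = 0.120). The interval was then 0.04 to 0.50 for CTSB, −0.01 to 0.70 for ADAM23 and −0.52 to −0.02 for MMP11, and 146 of all probes were called (0.996%).

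Caruncular and intercaruncular samples differed in more members than samples of pregnant and cyclic cows did, as was so over all probes. For pregnancy 9.95% of all probes were called in caruncular and 7.17% in intercaruncular tissue, below the tissue shares given here. In most cows tissue cannot be told apart from scan, as set out below. Caruncular tissue had higher ratios of ADAMTSL3, ADAMTS3, ADAMTS5, ADAMTS6, ADAMTS19, ADAM10, ADAM17, ADAM19, ADAM33, MMP14 and CTSO and lower ratios of MMP15 and ADAMTSL5 in both cyclic and pregnant cows. In pregnant cows ADAM23, TIMP1 and the brighter CTSC probe were also higher and TIMP2 and CTSL lower. Called members numbered 13 of 56 in cyclic cows (23.2%, against 12.2% of all probes), of which 11 were higher (6.81% of all probes) and 2 lower (5.39%). In pregnant cows they numbered 18 (32.1%, against 17.0%), of which 14 were higher (8.91%) and 4 lower (8.04%). As tissue differences ADAM10, ADAM23, ADAMTSL5, CTSC and CTSL lay outside the 10 largest and were named after their values were seen. With the slide as a random block 9 members were called in cyclic cows, where ADAM17, ADAMTS3, ADAMTSL5 and CTSO were lost, and 14 in pregnant cows, where ADAM33, ADAMTSL5, TIMP2 and CTSL were lost. CSTF1, matched by letters alone, was higher in both states (1.22 and 1.21).

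The tissues were scanned apart, intercaruncular arrays in the first scan and caruncular arrays in the second, except for 1 pregnant and 1 cyclic cow whose tissues shared a slide in the third scan. For the other cows tissue and scan cannot be told apart, so each tissue difference is given beside that of the same-slide cow. Over all called probes the same-slide cow went the same way in 55.1% in cyclic and 70.7% in pregnant cows, and by at least 1.5-fold in 27.1% and 34.6%. Of the called members it went the same way in 6 of 13 and 12 of 18, and by at least 1.5-fold in 3 and 5. The 4 caruncular repeats of the third scan, compared with the first arrays of the same samples, differed by a median size of 0.05 over the tested members, and no tested member's mean over the 4 moved by more than 0.28.

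**Figure D3:**
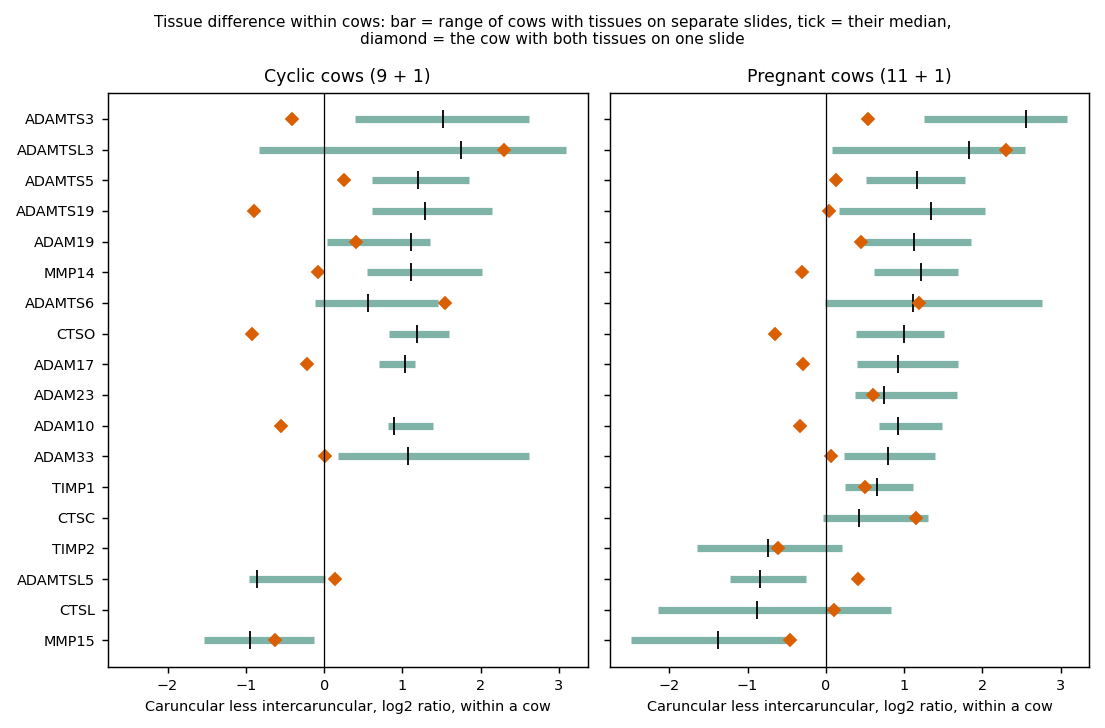
Caruncular minus intercaruncular log2 ratio within a cow for each called member, with cyclic cows on the left and pregnant cows on the right. Bars span the lowest to the highest cow among those with tissues on separate slides (9 cyclic, 11 pregnant), ticks are their median, and diamonds are the cow with both tissues on one slide. For MMP14, ADAM10, ADAM17 and CTSO the diamond falls below 0 in both states, and for ADAMTSL3, ADAMTS6, ADAM19 and MMP15 it lies on the same side of 0 as the tick in both.

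A set of members differed the same way in the same-slide cows. ADAMTSL3 ran from −1.80 through −0.62 to 0.07 in intercaruncular and from 0.14 through 1.14 to 1.88 in caruncular tissue of pregnant cows, with no overlap, as for 1.33% of all probes. The difference was 1.81 ± 0.28 (adjusted p = 2.39e-06) in pregnant and 1.43 ± 0.31 (adjusted p = 0.000429) in cyclic cows, and it was 2.30 in each same-slide cow. ADAMTS6, a secreted protease of the family, differed by 1.01 ± 0.23 (adjusted p = 0.000423) and 0.65 ± 0.25 (adjusted p = 0.0401), with 1.19 in the pregnant and 1.55 in the cyclic same-slide cow. In cyclic cows the ADAMTS6 difference was 0.55 (adjusted p = 0.0564) without the same-slide cow and was then not called.

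ADAM19, an ADAM that sheds neuregulins, ran from −1.17 through −0.27 to 0.51 in intercaruncular and from 0.52 through 0.77 to 1.00 in caruncular tissue of pregnant cows, again with no overlap. It differed by 1.03 ± 0.16 (adjusted p = 1.70e-06) in pregnant and 0.87 ± 0.17 (adjusted p = 0.000144) in cyclic cows, and by 0.44 and 0.41 in the same-slide cows. MMP15, a membrane-type MMP, had the largest difference below 0. It ran from −0.28 through −0.04 to 1.03 in intercaruncular and from −1.78 through −1.34 to −0.61 in caruncular tissue of pregnant cows, without overlap. The difference was −1.28 ± 0.17 (adjusted p = 1.65e-07) in pregnant and −0.88 ± 0.19 (adjusted p = 0.000337) in cyclic cows, and −0.46 and −0.63 in the same-slide cows.

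For other members the same-slide cows went the opposite way. MMP14, the membrane-type MMP that activates MMP2, differed by 1.01 ± 0.24 (adjusted p = 0.000783) in pregnant and 1.09 ± 0.27 (adjusted p = 0.00150) in cyclic cows. All 11 pregnant and 9 cyclic cows with tissues on separate slides were higher in caruncular tissue, by 0.62 to 1.68 and by 0.54 to 2.01. The same-slide cows were at −0.30 and −0.08. CTSO differed by 0.90 ± 0.22 (adjusted p = 0.000746) and 1.00 ± 0.24 (adjusted p = 0.000993), while the same-slide cows were at −0.65 and −0.92. Its probe was above background in 4 of 10 cyclic intercaruncular samples and in 9 of 10 cyclic caruncular samples. The size of the cyclic CTSO difference thus rests partly on values near background. ADAM17, the enzyme that sheds TNF, differed by 0.87 ± 0.22 (adjusted p = 0.00143) and 0.83 ± 0.24 (adjusted p = 0.00707) against −0.29 and −0.22. ADAM10, which sheds Notch and other receptors, differed by 0.84 ± 0.19 and 0.82 ± 0.20 against −0.33 and −0.55. ADAMTSL5, with a difference of −0.65 in each state, was at 0.42 and 0.13.

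In these cows the levels themselves stood apart in both tissues. The pregnant same-slide cow had MMP14 ratios of 1.32 in intercaruncular and 1.01 in caruncular tissue, the highest of each group. The cyclic same-slide cow had −1.86 and −1.94, the lowest of each group. ADAM17 was at 1.28 and 0.99 in the former and at −1.79 and −2.01 in the latter. The 4 repeat arrays of the third scan differed from their first arrays by −0.02 to 0.04 for MMP14. For ADAM17 they differed by −0.24 to 0.04 and for ADAM10 by −0.06 to 0.19. These repeats were caruncular samples of other cows, with no intercaruncular sample among them. Why the same-slide cows stand apart was not tested.

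ADAMTS3, which trims the amino propeptide of procollagen, had the largest difference in pregnant cows. It ran from −2.81 through −1.50 to 0.81 in intercaruncular and from 0.05 through 0.75 to 1.35 in caruncular tissue, and differed by 2.09 ± 0.38 (adjusted p = 2.00e-05). In cyclic cows the difference was 1.21 ± 0.42 (adjusted p = 0.0206). The probe was dim, with a mean signal of 70. In intercaruncular tissue it was above background in 6 of 12 pregnant and 4 of 10 cyclic cows. In caruncular tissue it was above background in 12 of 12 and 9 of 10. The sizes of these ADAMTS3 differences thus rest partly on intercaruncular values near background. The same-slide cows were at 0.54 and −0.42, outside the range of the others in each state. ADAMTS5, a main aggrecan-cutting enzyme, differed by 1.09 ± 0.17 (adjusted p = 2.55e-06) and 1.09 ± 0.19 (adjusted p = 2.65e-05), with 0.13 and 0.26 in the same-slide cows. ADAMTS19 differed by 1.07 ± 0.22 and 1.05 ± 0.24 with 0.04 and −0.90, and ADAM33 by 0.65 ± 0.25 and 1.09 ± 0.28 with 0.06 and 0.01.

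Of the members called in pregnant cows alone, TIMP1, a secreted inhibitor of most MMPs, differed by 0.62 ± 0.12 (adjusted p = 5.04e-05) with 0.50 in the same-slide cow. TIMP2 differed by −0.59 ± 0.14 (adjusted p = 0.000722) with −0.62. ADAM23 differed by 0.84 ± 0.20 (adjusted p = 0.000717) with 0.60 and CTSC by 0.59 ± 0.15 (adjusted p = 0.00155) with 1.15. The dimmer CTSC probe was at −0.08 (adjusted p = 0.606), and the mean of both CTSC probes was not called. CTSL differed by −0.73 ± 0.31 (adjusted p = 0.0461), while the same-slide cow was at 0.11. That these were called in pregnant and not in cyclic cows does not show a difference between the states, since none had a called interaction. Nor is a difference excluded. With the cow as a replicate block, the TIMP1 interaction was 0.34 with an interval from 0.08 to 0.59 (adjusted p = 0.151 in limma). The intervals were −0.01 to 0.70 for ADAM23 and −0.02 to 0.65 for CTSC. They were −0.79 to 0.07 for TIMP2 and −1.13 to 0.01 for CTSL. A dimmer MMP2 probe differed by 0.66 in pregnant cows and was called, where the brighter one was at 0.25 (adjusted p = 0.0820).

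The tissues also differed in cell markers. Of all probes 8.91% were higher and 8.04% lower in caruncular tissue of pregnant cows, and 6.81% and 5.39% in cyclic cows. In pregnant cows 5 of 6 epithelial and 3 of 3 ciliated epithelial genes were lower in caruncular tissue and 5 of 7 stromal genes were higher. In cyclic cows these counts were 2, 3 and 2. CDH1, the other epithelial gene, was higher in caruncular tissue of pregnant cows (0.83, adjusted p = 0.00512 in limma). The summed epithelial signal was 35420 to 78240 (median 49580) in caruncular and 68120 to 118500 (median 81680) in intercaruncular tissue of pregnant cows. Their part in the tissue differences of the proteases was not tested. Of the 30 pathway genes outside the pattern, RECK, a membrane-anchored MMP inhibitor, was higher in caruncular tissue (0.59 in cyclic and 0.60 in pregnant cows), as was the proprotein convertase PCSK5 in pregnant cows (0.69). The peptidases MEP1B (−1.10 and −1.37) and MME (−0.68 and −1.21) were lower.

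Embryo size went with a few members in intercaruncular tissue. A size or fertility difference, and an interaction, is said to be called at an adjusted p under 0.05 alone. Cows with large embryos had higher CSTB and CTSS and lower TIMP3 and CTSF there than cows with small embryos, 4 of 56 members (7.14%, against 3.62% of all probes). By direction 2 were higher (1.66% of all probes) and 2 lower (1.96%). At an unadjusted p under 0.05 there were 14 of the 56 members, against 21.6% of all probes. In caruncular tissue no member and no probe at all was called. There 6 members had an unadjusted p under 0.05, against 7.00% of all probes, and the smallest p was that of CTSS (0.35 ± 0.12, adjusted p = 0.640).

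CSTB had intercaruncular ratios of −0.64, −0.51, −0.46, −0.34 and −0.29 in the 5 cows with small embryos and from −0.25 through 0.46 to 0.73 in the 7 with large embryos. The groups did not overlap, as for 3.36% of all probes, and the difference was 0.76 ± 0.15 (adjusted p = 0.0274 in limma). The pregnancy change of CSTB in this tissue, 0.39, thus averaged over both size groups. CTSS was at −0.38, −0.36, −0.19, −0.11 and 0.03 with small embryos and from −0.05 through 0.28 to 0.50 with large ones. The groups overlapped at their ends, and the difference was 0.48 ± 0.11 (adjusted p = 0.0406 in limma).

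TIMP3 was at −0.03, 0.31, 0.38, 0.41 and 0.58 with small embryos and from −0.48 through −0.24 to 0.05 with large ones. A single cow with a small embryo fell within the range of the large, and the difference was −0.56 ± 0.11 (adjusted p = 0.0265 in limma). CTSF, a lysosomal cathepsin with a cystatin-like propeptide, was at 0.11, 0.24, 0.27, 0.30 and 0.32 with small embryos and from −0.66 through −0.29 to 0.20 with large ones. One cow with a large embryo lay among the small, and the difference was −0.53 ± 0.12 (adjusted p = 0.0389 in limma). CSTF2, matched by letters alone, was higher with large embryos (0.48, adjusted p = 0.0323).

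**Figure D4:**
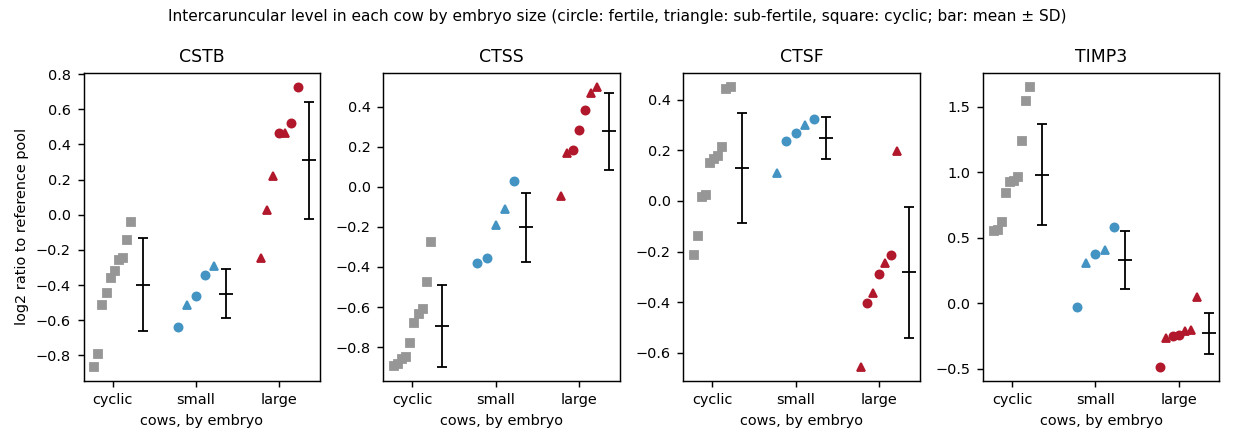
Intercaruncular log2 ratio to the reference pool for CSTB, CTSS, CTSF and TIMP3 in cyclic cows (10, grey squares), cows with small embryos (5, blue) and cows with large embryos (7, red), with circles for fertile and triangles for sub-fertile cows and bars for the mean with its SD. CSTB and CTSS are higher and CTSF and TIMP3 lower with large embryos, and the CSTB values of the size groups do not overlap.

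These calls rested on few animals. With each pregnant cow left out in turn, between 0 and 11 members were called. None was called without cow Pregnant_932, Pregnant_9246, Pregnant_3805, Pregnant_3807 or Pregnant_1943, while 11 were called without Pregnant_9790, the same-slide cow. CSTB and TIMP3 were called in 7 of the 12 fits, CTSS in 2 and CTSF in 1. Over these fits the CSTB difference lay between 0.69 and 0.85 (adjusted p from 0.00294 to 0.0788) and the TIMP3 difference between −0.65 and −0.50 (adjusted p from 0.00612 to 0.0766).

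By role, 10 of the 11 cysteine cathepsins had an intercaruncular size difference above 0, against 49.2% of all probes, with a median of 0.41 against −0.00 over all probes, though CTSS alone of these 10 was called. CTSZ was at 0.57 ± 0.23 (adjusted p = 0.179) and CTSB at 0.41 ± 0.18 (adjusted p = 0.203). The 3 plasminogen activator genes were at 0.32 to 0.51, with PLAUR the largest (adjusted p = 0.142). TIMP4 was at −0.62 ± 0.19 (adjusted p = 0.0815) and was called with fertility class as a covariate and with the slide as a random block, each of which gave 5 called members. The macrophage list had a median size difference of 0.41 and the interferon response list 1.13 in this tissue, with no gene of either called. The endothelial list had a median of −0.39, and 1 of its 5 genes, PECAM1, was called (−0.93, adjusted p = 0.0414). The part of these shifts in the members' values was not tested.

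No member differed between fertile and sub-fertile cows past the threshold. Fertility class was largely tied to slide. Cows Pregnant_932, Pregnant_9246, Pregnant_3805 and Pregnant_977, of both classes, shared a slide in each tissue. No other slide held first arrays of both classes, so for the other cows class and slide cannot be told apart. In caruncular tissue 0 members and 0 of all probes were called, and 3 members had an unadjusted p under 0.05 against 13.6% of all probes. The smallest p was that of ADAM9, a widely expressed sheddase, at −0.35, −0.10, −0.08, −0.07, 0.13 and 0.30 in the fertile and −1.44, −1.36, −0.91, −0.46, −0.45 and −0.24 in the sub-fertile cows. The groups overlapped slightly and the difference was 0.78 ± 0.21 (adjusted p = 0.271 in limma).

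In intercaruncular tissue 0 members and 7 of all probes (0.0477%) were called, and 10 members had an unadjusted p under 0.05 against 13.4% of all probes. ADAMTS7 had the smallest p. It was at −0.42, −0.25, −0.17, −0.03, 0.00 and 0.03 in fertile and 0.03, 0.12, 0.27, 0.38, 0.45 and 0.60 in sub-fertile cows, groups that touched, with a difference of −0.45 ± 0.12 (adjusted p = 0.165 in limma). CTSV, chosen after its values were seen because its groups did not overlap (as for 1.38% of all probes), was at −0.51 to 0.34 in fertile and 0.40 to 1.57 in sub-fertile cows, with a difference of −0.74 ± 0.20 (adjusted p = 0.166 in limma).

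The 23 members too dim to be tested were ADAM1, ADAM2, ADAM11, ADAM15, ADAM21, ADAM22, ADAMTS2, ADAMTS8, ADAMTS12, ADAMTS14, ADAMTS15, ADAMTS16, ADAMTS17, ADAMTS18, ADAMTS20, CTSG, MMP3, MMP7, MMP8, MMP13, MMP20, MMP24 and MMP27. ADAMTS17, ADAMTS20 and CTSG, a neutrophil granule protease, were above background in no sample, and MMP3, MMP7, ADAM1 and ADAM2 in 1 each. The collagenases MMP8 and MMP13 and the endometrial MMP27 were above background in 2 of 44 samples each. At the other end, the procollagen-trimming ADAMTS2 was above background in 33 samples and ADAM15 in 30, without reaching the minimum signal in enough of them.

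Some dim members were above background more often in one state. Over all spots the share above background was 69.8% to 84% on pregnant and 68.8% to 76.1% on cyclic intercaruncular arrays, and its part in these counts was not tested. ADAMTS8, which cuts aggrecan, was above background in 8 of 12 pregnant and 1 of 10 cyclic intercaruncular samples, and in 8 of 12 and 2 of 10 caruncular samples. MMP24, a membrane-type MMP, was above background in 7 of 12 pregnant and 1 of 10 cyclic intercaruncular samples and in 5 of 12 and 3 of 10 caruncular samples. ADAMTS18 was above background in 6 of 12 pregnant and 9 of 10 cyclic intercaruncular samples and in 3 of 12 and 5 of 10 caruncular samples. ADAMTS14 was above background in 4 of 12 pregnant and 0 of 10 cyclic intercaruncular samples, though its mean log2 ratio there was 0.00 in pregnant and 0.60 in cyclic cows. No fold is given for these members, since the dim group holds only a bound.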

How the data were processed

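Sample RNA in Cy5 and a pool of endometrial RNA in Cy3 were hybridised together on bovine 60-base oligonucleotide arrays. Per the file headers the scans were read by Agilent Feature Extraction 9.5.3.1, which gave background-subtracted, dye-normalised signal intensities, flags per spot, and the log10 ratio of Cy5 over Cy3. The authors also deposited a matrix of log2 ratios, whose columns correlated with the scanner ratios at 0.989 or more, so its direction is Cy5 over Cy3. Its column medians of −0.03 to 0.06 show no exact centring.

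The scanner log10 ratios were turned into log2 ratios. Control and outlier-flagged spots were left out, spots of a probe averaged, each array centred on its median over the tested probes, and 4 repeat arrays averaged with the first arrays of their cows. A probe was tested where a share of at least 0.5 of its spots was well above background and its mean Cy5 signal was at least 80 in 22 of 44 samples, which 14664 of 21475 probes were. Groups were compared with limma 3.58.1 in R 4.3.3, with Benjamini-Hochberg adjustment over all tested probes. The 4-group fit on all 44 samples gave the tissue differences and the interaction. Intervals are at 95%, and a fold is on the ratio scale. The pregnancy fits within each tissue were tested on simulated data with independent noise, and the other fits were not. The number of cows limits the precision.

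A gene with several probes was described by the brightest tested one. All members called for pregnancy, embryo size or the interaction, the 10 largest tissue differences in either state, the TIMPs, the plasminogen activator genes and the untested members were named, and for comparisons without a call the smallest p. Of the 86 member probes, 74 matched the RefSeq gene table by accession or symbol. The members, role groups, pathway genes and cell markers were chosen with earlier results of these data known. Alternatives covered the background correction, centring, filter, probe choice, deposited matrix, slide, scan, cow, test, repeats and single cows. Those without the cyclic cow with the most flagged spots (up to 7.6%), without the cows of the third scan, and with repeat arrays kept apart were chosen after seeing the data. The tissues of a cow share the animal, so the cow number pairs them: deviations from the group means correlated at 0.11 to 0.87 (median 0.61) within the 22 cows.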

Additional observations from a re-analysis of the deposited data

Results flagged for a closer look

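The Dixon gap test picked out 3 of 40 groups of values, taken over cyclic cows and over cows with large or small embryos, where chance picks about 1 in 20. All 3 were the cyclic cow whose tissues shared a slide in the third scan. Its caruncular CTSO ratio was −2.07, against −0.23 in the next lowest cyclic cow. Its caruncular TIMP1 ratio was −0.41, against 0.06. Its intercaruncular CTSZ ratio was −1.30, against −0.54. The results without this cow are given with the alternatives.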

How the results depend on the processing

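Of the recomputed counts of called members, 112 stayed within 1.5 times the reported count and 17 did not. Many of the 112 come from comparisons where 0 members were called both as reported and in the alternative. Such counts say little about how stable a call is. Pregnancy counts were 8 and 7 in caruncular and intercaruncular tissue. With slide fitted as a fixed block they were 0 and 2, and with slide as a random block 7 (ADAMTSL3 lost) and 3 (CTSC, CTSZ, CTSO and ADAM23 lost). With slide fixed and repeat arrays kept apart 9 caruncular members were called. Without the filter they were 10 and 11, adding ADAMTS8, ADAMTS18 and MMP20 and losing ADAMTSL3 in the former, and adding ADAMTS14, ADAMTS18, MMP20 and MMP24 in the latter. With the fixed slide block the caruncular ADAMTSL3 change was −0.11. Without the filter 1 member (MMP24) had a called interaction and 2 members (CSTB and TIMP3) a called intercaruncular size difference. With single cows left out the latter count ranged from 0 to 11, and those of the other size and fertility comparisons stayed at 0. The causes were not tested. In the cow with both tissues on the same slide the tissue difference was opposite for ADAMTS3 (−0.42), MMP14 (−0.075), ADAMTS19 (−0.90), CTSO (−0.92), ADAM17 (−0.22), ADAM10 (−0.55) and ADAMTSL5 (0.13) among cyclic cows and for MMP14 (−0.30), CTSO (−0.65), ADAM17 (−0.29), ADAM10 (−0.33), ADAMTSL5 (0.42) and CTSL (0.11) among pregnant cows.

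With the cow as a replicate block 13 and 18 members differed between the tissues in cyclic and pregnant cows and 0 had a called interaction. These were the same members as without the block, and the block changed no other call of a member; 8 members had an interaction at an unadjusted p under 0.05 with the block and 2 without it. Over all probes it called 146 interactions against 3. The methods' t-test called 7 and 7 members for pregnancy, losing ADAMTSL3. Without the cyclic cow with the most flagged spots the counts were 7 and 5 (ADAMTSL3, and CTSC and CTSO, were lost), without the cyclic cow of the third scan 8 and 6 (CTSC at 0.58 and CTSZ at 0.50 were lost and ADAMTSL2 was gained in intercaruncular tissue), and without both cows of that scan 10 and 8 (TIMP4 and MMP15 were gained in caruncular tissue; CTSO and CTSZ were lost and ADAMTSL2, ADAMTSL3 and CTSL gained in intercaruncular tissue). Signal over background limits the 23 untested members.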
